A study of Rattus norvegicus with 6 samples.

Results

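The genes of homologous recombination, the Fanconi anaemia pathway and the DNA damage checkpoint were examined in primary bone marrow mesenchymal stem cells (BMSCs) of rat femur. The set holds 34 genes chosen by symbol from their known roles, and all 34 were found among the 37209 rows of the deposited count table. Of these, 33 were listed under their own symbol, and Xrcc3 was listed as LOC102551085, the placeholder that carries its NCBI gene number in the RefSeq table. RNA was sequenced from 3 libraries of wild-type (WT) primary cells given 3% cigarette smoke extract (CSE), an aqueous extract of tobacco smoke, for 6 h and from 3 libraries of WT primary cells kept in serum-free medium for 6 h as the control. The labels do not state the diluent of the extract. Nor do they tie the libraries to separate animals or culture dishes, so the p-values below reflect how much these 6 libraries vary, which could be technical variation alone.

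Homologous recombination repairs a broken DNA double strand by copying an intact sister chromatid, and it is therefore used mainly in cells that are replicating or have replicated their DNA. The break is trimmed to single strands, BRCA1 and BRCA2 with their partners act on the single strand, and mediator proteins and RAD54 help it to invade its template. The Fanconi pathway removes crosslinks between DNA strands, such as those made by aldehydes, and hands the resulting breaks to recombination. ATM and ATR are the kinases that sense breaks and exposed single-stranded DNA, and they hold the cell cycle through CHK2 and CHK1. Many of these genes are transcribed under E2F factors as cells enter S phase.

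Library totals lay between 19433637 and 22589327 counts in the CSE group and between 15958621 and 18651194 in the control group, and the first principal component, with 88.6% of the variance, placed each library with its group. The 10 stromal markers checked all had counts, with summed levels of 31227 to 32533 counts per 1000000 (CPM, scaled by TMM) in CSE libraries and 32076 to 35276 CPM in control libraries, most of it from the collagen gene Col1a1. Singly, 5 of them fell, among them Cxcl12 (−2.17 ± 0.06 on the log2 scale, CSE over control ± SE), Pdgfra (−0.97 ± 0.06) and Pdgfrb (−0.87 ± 0.05), 4 rose, among them Cd44 (1.09 ± 0.05), and 1 did not pass. All 8 blood cell and macrophage markers also had counts, at 1719 to 1775 CPM in CSE libraries and 1546 to 1590 CPM in control libraries, most of it from the lysozyme gene Lyz2. Of these 8, Lyz2 (0.27 ± 0.04) and Cd68 (0.14 ± 0.06) rose, Cd14 (−1.45 ± 0.08), Ptprc (−0.33 ± 0.06) and Csf1r (−0.25 ± 0.05) fell, and 3 did not pass. The cultures therefore held macrophage transcripts, and their part in the results below was not tested. The 3 erythroid markers were at 0 in every library. Of the 3 lymphocyte markers 2 were at 0 in every library, and the 4 endothelial markers summed to 3.27 to 3.71 CPM in CSE libraries and 6.36 to 7.22 CPM in control libraries, most of it from Tek. In bulk RNA, fewer cells of a type and less RNA per cell cannot be told apart.

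All 34 genes had enough counts to be tested, with 9 to 1382 counts per library. With CSE, 27 of them fell, 3 rose and 4 did not pass (edgeR quasi-likelihood test with Benjamini-Hochberg adjustment over 13390 tested genes, threshold 0.05). Among all tested genes 37.5% fell and 36.3% rose, and 73.9% changed in either direction. Falls made up 79.4% of the set and rises 8.82%. At least 2-fold falls numbered 13 of 34, against 14.4% of all tested genes, and no member rose 2-fold with edgeR, DESeq2 or limma-voom, also at an unadjusted p under 0.05 (0 in each), as 10.7% of all tested genes did. In all 27 genes that fell, every CSE library lay below every control library, as did 38.6% of all tested genes. In the 3 that rose every CSE library lay above every control library, as did 37.2% of all tested genes. The median log2 fold change of CSE over control was −0.87 in the set and −0.02 over all tested genes.

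**Figure D1:**
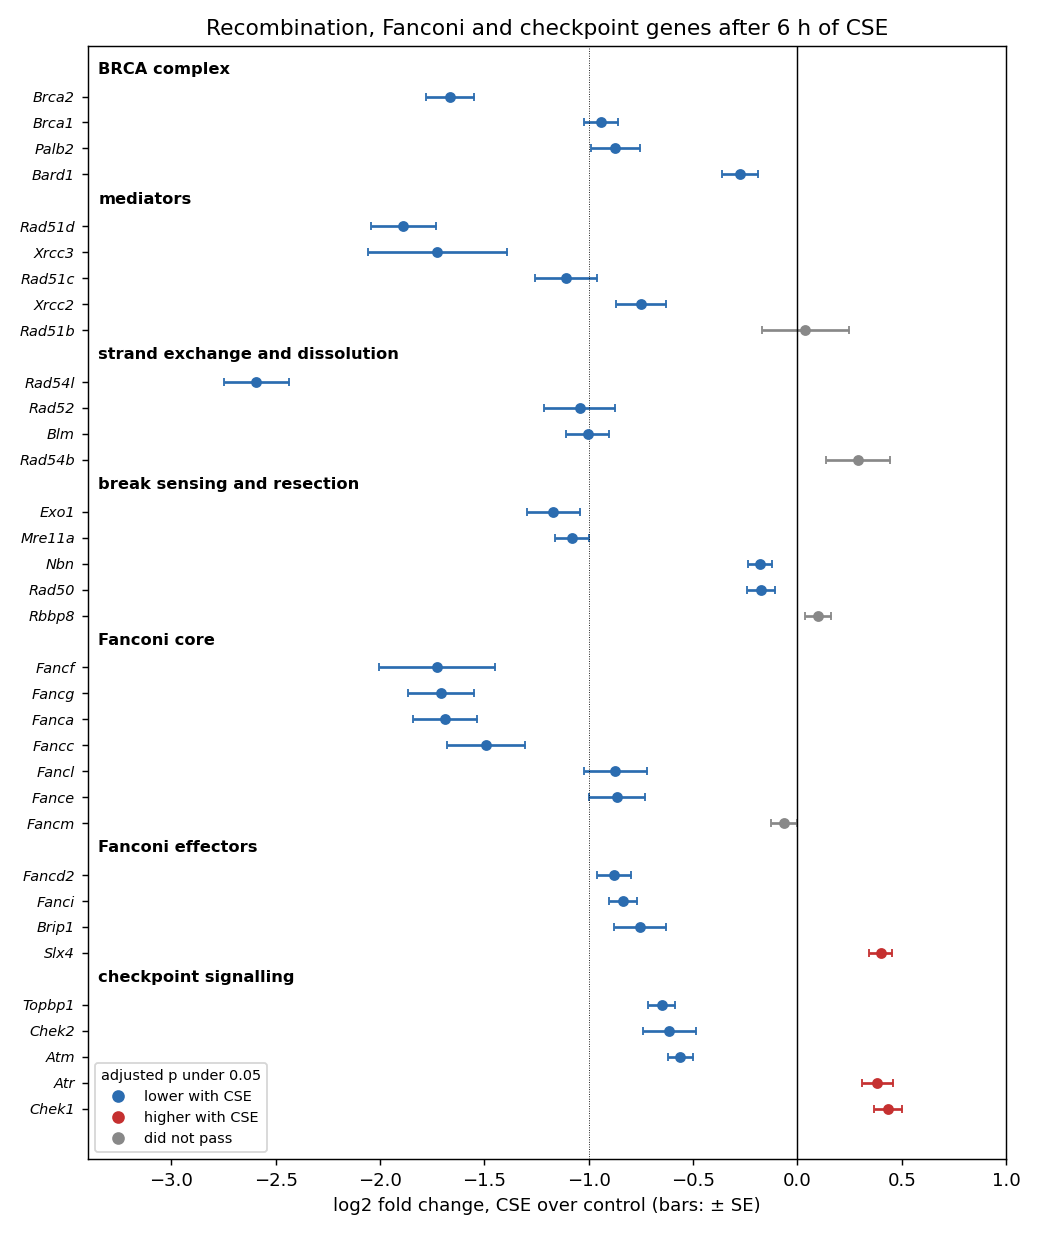
Log2 fold change of CSE over control for each of the 34 genes (dot) with its standard error (bar), grouped by role; the dotted line marks a 2-fold fall. Rad54l lies farthest to the left at −2.59, and Slx4, Atr and Chek1 are the 3 genes to the right of 0 that passed the test.

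The sequences just upstream of these genes are shown because many members fell together. RefSeq promoter windows of 300 bases (250 before to 50 after the annotated start, GRCr8, a later build than the one named for the counts) matched 29 of the 34 genes by symbol, and where a gene had several windows the first was used. E2F letters (TTCCCGC or TTGGCGC, on either strand) were present in 12 of 29 member windows (41.4%), against 12.3% of the 9059 windows of tested genes and 6.26% of all 33469 windows. CCAAT letters were present in 37.9% of member windows and 37.3% of those of tested genes, the letters TTTGAA of the CHR in 17.2% and 11.5%, and the antioxidant response element letters TGACNNNGC in 10.3% and 14.9%. A match is a description of the letters and not evidence of binding. The 5 windows below, chosen after the values were seen, are of genes that fell with E2F letters (Brca1, Fancd2, Rad51d), the gene that fell the most, which has none (Rad54l), and the gene that rose with them (Chek1). Capitals mark the E2F letters.
Brca1, GRCr8 chr10:86977532-86977831, minus strand: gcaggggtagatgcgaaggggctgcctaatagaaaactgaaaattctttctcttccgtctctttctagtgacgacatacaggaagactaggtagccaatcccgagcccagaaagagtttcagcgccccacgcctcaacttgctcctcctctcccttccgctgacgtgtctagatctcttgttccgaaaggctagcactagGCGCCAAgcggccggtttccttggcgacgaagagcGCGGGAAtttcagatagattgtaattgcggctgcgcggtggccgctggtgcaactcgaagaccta
Fancd2, GRCr8 chr4:148234458-148234757, plus strand: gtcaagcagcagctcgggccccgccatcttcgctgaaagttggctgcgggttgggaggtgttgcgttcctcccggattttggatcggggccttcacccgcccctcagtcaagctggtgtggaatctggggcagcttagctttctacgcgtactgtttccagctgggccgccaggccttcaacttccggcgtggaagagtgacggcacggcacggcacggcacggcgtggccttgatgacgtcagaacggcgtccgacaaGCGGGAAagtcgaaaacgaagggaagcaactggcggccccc
Rad51d, GRCr8 chr10:68321853-68322152, minus strand: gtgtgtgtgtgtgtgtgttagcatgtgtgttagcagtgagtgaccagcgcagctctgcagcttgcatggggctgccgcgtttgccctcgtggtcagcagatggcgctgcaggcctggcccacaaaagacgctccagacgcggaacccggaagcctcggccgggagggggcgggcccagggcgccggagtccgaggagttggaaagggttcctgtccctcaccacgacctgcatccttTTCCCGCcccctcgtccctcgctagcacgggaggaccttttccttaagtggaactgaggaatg
Rad54l, GRCr8 chr5:134841722-134842021, minus strand: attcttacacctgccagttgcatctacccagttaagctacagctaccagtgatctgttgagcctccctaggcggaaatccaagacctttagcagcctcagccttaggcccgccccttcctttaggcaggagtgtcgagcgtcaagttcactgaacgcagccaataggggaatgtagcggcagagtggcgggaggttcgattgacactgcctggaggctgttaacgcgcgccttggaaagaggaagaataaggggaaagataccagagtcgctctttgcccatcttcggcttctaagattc
Chek1, GRCr8 chr8:44629794-44630093, minus strand: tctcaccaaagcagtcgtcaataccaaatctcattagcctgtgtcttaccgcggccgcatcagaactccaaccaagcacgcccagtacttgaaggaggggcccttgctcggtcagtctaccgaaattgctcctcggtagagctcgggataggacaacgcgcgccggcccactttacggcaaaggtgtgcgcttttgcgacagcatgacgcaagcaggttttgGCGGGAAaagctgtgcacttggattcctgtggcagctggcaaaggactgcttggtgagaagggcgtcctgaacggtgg

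Genes fell both with and without E2F letters in their windows. The median log2 fold change was −0.85 over the 12 member genes with a match and −1.04 over the 17 without one. Of the 12 with a match 11 fell, and of the 17 without one 12 fell, where 37.5% of all tested genes fell. Over the 9059 tested genes with a window, the median log2 fold change was −0.06 with E2F letters and −0.004 without them. Chek1, whose window holds GCGGGAA like that of Fancd2, was the exception among the 12.

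All 4 genes of the BRCA complex were lower with CSE, as were 37.5% of all tested genes, and Brca2 fell the most. Brca2, which acts on resected single-stranded DNA, had 6.50, 5.40 and 5.74 CPM in CSE libraries, against 17.5, 21.0 and 17.6 CPM in control libraries. It changed by −1.66 ± 0.12 on the log2 scale (CSE over control ± SE, edgeR adjusted p = 6.9e-10), a level 3.17-fold higher in the control. Brca1, which promotes resection and recruits PALB2, had 17.0, 14.8 and 16.0 CPM in CSE libraries, against 32.2, 28.4 and 31.4 CPM in control libraries. The groups were well apart for both genes, where 38.6% of all tested genes had every CSE library below every control library. Brca1 changed by −0.94 ± 0.08 (edgeR adjusted p = 1.2e-08). Palb2, the bridge between BRCA1 and BRCA2, had 5.50, 5.56 and 5.63 CPM in CSE libraries, against 10.2, 10.5 and 9.89 CPM in control libraries (−0.87 ± 0.12). Bard1, the obligate partner of BRCA1 in its ubiquitin ligase, moved little, with 17.3, 19.6 and 16.5 CPM in CSE libraries, against 21.1, 20.5 and 23.0 CPM in control libraries (−0.27 ± 0.09, edgeR adjusted p = 0.0096). The Bard1 call ended with DESeq2 (adjusted p = 0.0557) and without CSE replicate 3 (edgeR adjusted p = 0.0522), within a range of 1.5e-04 to 0.0557 over the alternatives.

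**Figure D2:**
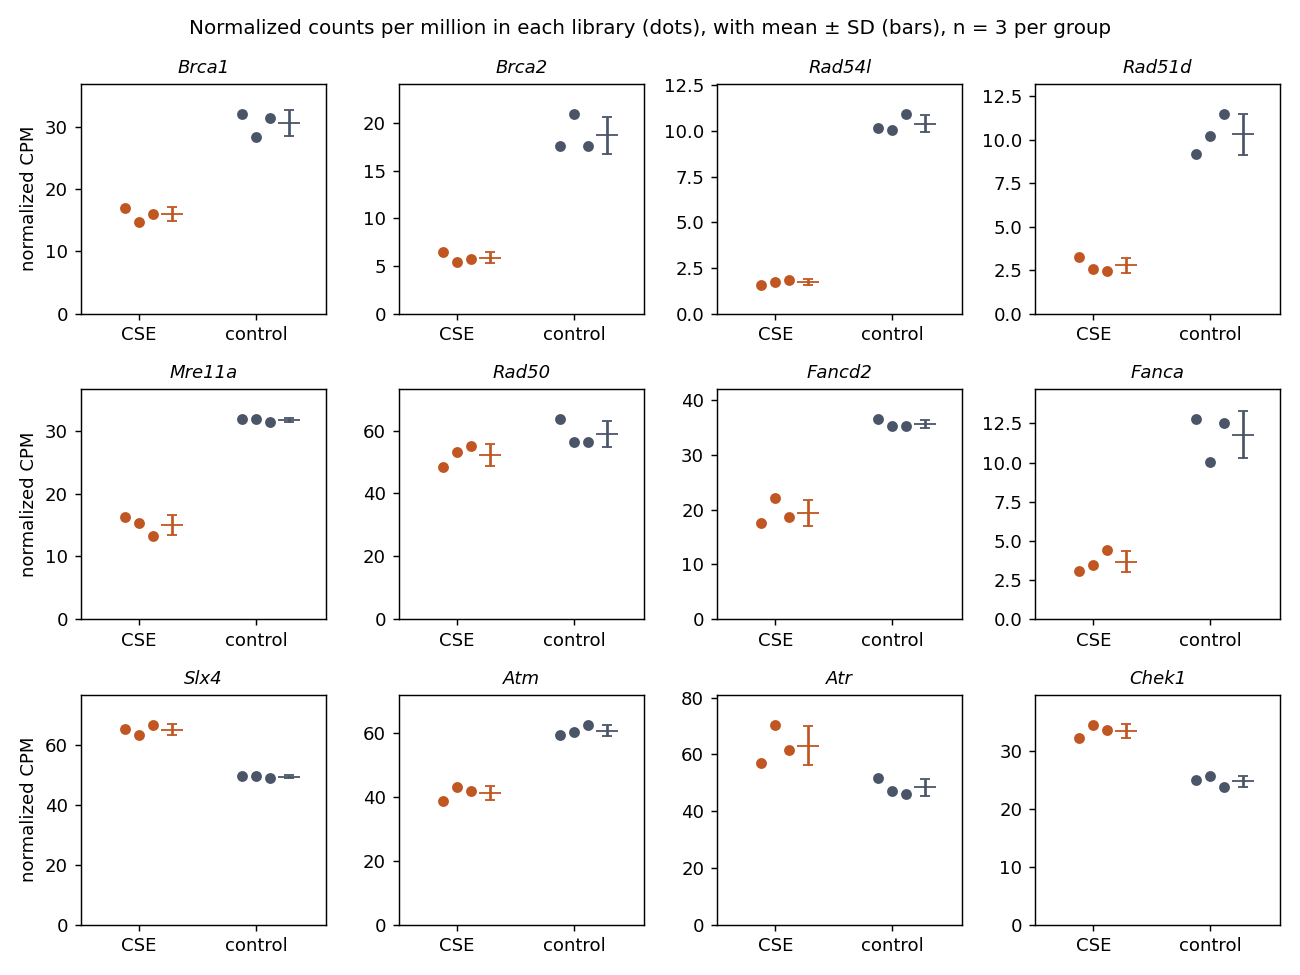
Normalized CPM of 12 member genes in each library (dots, 3 CSE and 3 control), with the mean and SD of each group beside them; every vertical axis starts at 0. CSE libraries lie below control libraries except for Slx4, Atr and Chek1, and in Rad50 the gap between the groups is narrow.

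The mediator genes Rad51b, Rad51c, Rad51d, Xrcc2 and Xrcc3 were lower in 4 of 5 cases, where 37.5% of all tested genes fell. Their products act in a 4-protein complex of RAD51B, RAD51C, RAD51D and XRCC2 and in a pair of RAD51C with XRCC3. Rad51d had 3.27, 2.56 and 2.48 CPM in CSE libraries, against 9.19, 10.2 and 11.5 CPM in control libraries. The change was −1.89 ± 0.16 on the log2 scale (edgeR adjusted p = 6.5e-09). Rad51c fell to 4.30 ± 0.53 CPM with CSE, against 9.24 ± 1.27 CPM in the control (SD, n = 3 each), and Xrcc2 to 9.54 ± 1.21 CPM, against 16.0 ± 2.17 CPM. Xrcc3 was the scarcest member, with 32 counts in the CSE libraries together and 101 in the control libraries, and still fell (−1.73 ± 0.33). Rad51b stood aside from its partners, with 2.99, 2.73 and 3.15 CPM in CSE libraries, against 3.36, 3.06 and 2.27 CPM in control libraries. Its groups overlapped and it did not pass (0.04 ± 0.21, edgeR adjusted p = 0.877).

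Among the genes of strand exchange and of the dissolution of joint molecules, Rad54l gave the largest fall of the whole set. Rad54l, the motor protein gene that drives strand invasion, had 1.57, 1.75 and 1.86 CPM in CSE libraries, against 10.2, 10.1 and 10.9 CPM in control libraries. It fell 6.03-fold (−2.59 ± 0.15 on the log2 scale, edgeR adjusted p = 8.2e-11). Its relative Rad54b did not follow, with 5.55, 6.00 and 5.17 CPM in CSE libraries, against 5.18, 4.11 and 4.39 CPM in control libraries. The Rad54b groups overlapped and it did not pass (0.29 ± 0.15, edgeR adjusted p = 0.098). Blm, the RecQ helicase gene that unravels double Holliday junctions, fell to 9.81 ± 0.80 CPM with CSE, against 19.7 ± 2.0 CPM in the control. Rad52, an annealing factor gene, fell to 3.38 ± 0.78 CPM, against 7.02 ± 0.46 CPM (SD, n = 3 each).

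Break sensing and end resection divided within 1 complex. Mre11a, the nuclease of the MRN complex, had 16.3, 15.4 and 13.2 CPM in CSE libraries, against 31.9, 31.8 and 31.3 CPM in control libraries (−1.08 ± 0.08, edgeR adjusted p = 2.3e-09). Rad50, the ATPase that tethers the ends, had 48.3, 53.1 and 55.1 CPM in CSE libraries, against 63.7, 56.3 and 56.5 CPM in control libraries (−0.17 ± 0.07, edgeR adjusted p = 0.0267). The groups of Rad50 nearly touched, whereas those of Mre11a did not come close. Nbn, which links the complex to ATM, was nearly as level as Rad50 (−0.18 ± 0.06, edgeR adjusted p = 0.0080). The Rad50 call ended under DESeq2 (adjusted p = 0.109), RLE size factors (edgeR adjusted p = 0.0504), and without CSE replicate 1 (0.155), CSE replicate 2 (0.0554) or Control replicate 1 (0.127), and at a threshold of 0.01, in a range of 9.7e-05 to 0.155 over the alternatives. The Nbn call ended under DESeq2 (adjusted p = 0.0517, range 1.3e-05 to 0.0517). Of the resection factors, Exo1, the long-range exonuclease gene, fell to 6.65 ± 0.67 CPM with CSE, against 14.9 ± 2.04 CPM in the control (SD, n = 3 each). Rbbp8, which encodes CtIP, the factor that starts resection, had 53.7, 55.6 and 53.7 CPM in CSE libraries, against 54.5, 51.3 and 46.7 CPM in control libraries and did not pass (0.10 ± 0.06, edgeR adjusted p = 0.170).

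In the Fanconi core, the ubiquitin ligase assembly that acts on FANCD2 and FANCI, 6 of 7 genes fell and 4 of these fell at least 2-fold. Among all tested genes 37.5% fell and 14.4% fell at least 2-fold. Fanca, a subunit gene, had 3.08, 3.49 and 4.39 CPM in CSE libraries, against 12.8, 10.1 and 12.5 CPM in control libraries (−1.69 ± 0.15, edgeR adjusted p = 2.2e-08). Fancg, the partner of FANCA, had 3.18, 2.73 and 2.33 CPM in CSE libraries, against 8.89, 9.80 and 8.32 CPM in control libraries (−1.71 ± 0.16). Fancf, an adaptor subunit gene, had 0.901, 2.29 and 0.982 CPM in CSE libraries, against 4.42, 4.90 and 4.34 CPM in control libraries (−1.73 ± 0.28). For all 3 the highest CSE library lay well under the lowest control library, although 1 CSE library of Fancf stood above the other 2. Every CSE library lay below every control library in 38.6% of all tested genes. Fancc was lower as well (−1.49 ± 0.19), and so were Fance (−0.86 ± 0.13) and Fancl, the catalytic subunit gene (−0.87 ± 0.15). Fancm, the DNA translocase gene that recruits the core to a stalled fork, had 31.7, 32.3 and 32.7 CPM in CSE libraries, against 34.3, 34.3 and 32.7 CPM in control libraries. It did not pass (−0.07 ± 0.06, edgeR adjusted p = 0.361) but was called lower under total counts alone (−0.25, edgeR adjusted p = 0.0017) and upper-quartile scaling (−0.20, edgeR adjusted p = 0.0081).

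Downstream of the core, Fancd2 and Fanci, the 2 subunits of the clamp that the core ubiquitinates, fell side by side. Fancd2 had 17.6, 22.1 and 18.7 CPM in CSE libraries, against 36.6, 35.3 and 35.3 CPM in control libraries, and Fanci had 20.8, 21.8 and 20.1 CPM, against 36.5, 37.6 and 37.6 CPM. Their log2 fold changes were −0.88 ± 0.08 and −0.83 ± 0.07 (edgeR adjusted p = 2.9e-08 and 4.6e-09). Brip1, a helicase gene of the pathway and a BRCA1 partner, fell to 6.57 ± 0.71 CPM with CSE, against 11.05 ± 0.92 CPM in the control (SD, n = 3 each). Slx4, the scaffold gene of structure-specific nucleases, rose, with 65.6, 63.3 and 66.9 CPM in CSE libraries, against 49.8, 49.8 and 49.0 CPM in control libraries. That is 1.32-fold (0.40 ± 0.05, edgeR adjusted p = 3.7e-06). Mus81 and Eme1, which encode a nuclease that SLX4 binds and were no members of the set, fell (−2.02 ± 0.15 and −2.13 ± 0.23, with edgeR adjusted p of 1.1e-09 and 2.0e-07). Of the further nuclease subunit genes Slx1b, Ercc4 and Ercc1, Slx1b fell (−1.07 ± 0.14, edgeR adjusted p = 3.05e-06). Ercc4 (0.14 ± 0.14) and Ercc1 (−0.11 ± 0.07) did not pass (edgeR adjusted p = 0.365 and 0.126). Eme1, Slx1b, Ercc4 and Ercc1 were chosen after their values were seen.

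Atr, Chek1, Atm and Chek2, the checkpoint kinase genes of the set, split by arm, but other genes of the arms did not follow. Atr, the kinase gene of the replication stress arm, had 57.1, 70.5 and 61.6 CPM in CSE libraries, against 51.8, 47.1 and 46.2 CPM in control libraries. Chek1, the kinase that ATR activates, had 32.3, 34.6 and 33.7 CPM in CSE libraries, against 25.0, 25.7 and 23.8 CPM in control libraries. Both rose without overlap, Atr 1.30-fold (0.38 ± 0.07, edgeR adjusted p = 1.6e-04) and Chek1 1.35-fold (0.43 ± 0.07, edgeR adjusted p = 1.7e-05). Every CSE library lay above every control library in 37.2% of all tested genes. Atm, the kinase gene of the double-strand break arm, had 38.7, 43.0 and 41.9 CPM in CSE libraries, against 59.2, 60.4 and 62.6 CPM in control libraries (−0.56 ± 0.06, edgeR adjusted p = 1.9e-07). Its effector Chek2 had 5.74, 5.45 and 5.74 CPM in CSE libraries, against 8.42, 9.12 and 8.38 CPM in control libraries (−0.61 ± 0.12, edgeR adjusted p = 2.8e-04). Both were thus lower in every CSE library than in any control library, as were 38.6% of all tested genes. Topbp1, which switches ATR on at single-stranded DNA, did not go with Atr and fell to 35.5 ± 2.26 CPM, against 55.8 ± 2.31 CPM (−0.65 ± 0.06). Of other ATR arm genes, Clspn (−1.09 ± 0.10), Timeless (−1.24 ± 0.09) and Tipin (−1.57 ± 0.12) fell and Rad17 rose (0.80 ± 0.07). Atrip, Rad1, Rad9a, Rad9b, Hus1 and Etaa1 did not pass. In the break arm Rnf8 rose (0.58 ± 0.09), whereas H2ax and Mdc1 fell, as given below, and Tp53bp1 and Rnf168 did not pass. Clspn, Tipin, Rad17, Atrip, Rad1, Rad9a, Rad9b, Hus1, Etaa1, Rnf8, Tp53bp1 and Rnf168 were chosen after their values were seen. Slx4, Atr and Chek1 kept their calls under every alternative run, at lowest log2 fold changes of 0.21, 0.19 and 0.25, all under total counts alone.

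Ratios of partner genes within a library do not depend on how libraries are scaled, and 12 pairs were compared by an exact 2-sided permutation test, in which 3 libraries against 3 cannot give a p below 0.1. The groups were apart in 10 of the 12 pairs, each at that smallest p (adjusted p = 0.12 over the pairs), and no pair passed. Groups that lie apart are common in these libraries, since single genes had every CSE library below every control library in 38.6% of all tested genes and above in 37.2%. The log2 ratio of Atm to Atr counts was −0.61 ± 0.09 with CSE and 0.33 ± 0.12 in control libraries (mean ± SD, n = 3 each). The log2 ratio of Chek1 to Chek2 was 2.57 ± 0.09 with CSE and 1.52 ± 0.04 in the control. Rad50 stood to Mre11a at 1.80 ± 0.25 with CSE and 0.89 ± 0.09 in the control, and Nbn to Mre11a at 1.88 ± 0.19 and 0.98 ± 0.04, so the unequal change of the MRN genes does not rest on library scaling. Brca1 to Bard1 stood at −0.16 ± 0.22 with CSE and 0.51 ± 0.09 in the control, and Brca2 to Palb2 at 0.07 ± 0.15 and 0.87 ± 0.11. Fancd2 to Fanci was a pair that overlapped, at −0.11 ± 0.13 with CSE and −0.06 ± 0.05 in the control, a difference of −0.05 ± 0.08 (SE, exact p = 0.7). The other was Xrcc3 to Rad51c, at −2.93 ± 0.18 and −2.33 ± 0.42 (exact p = 0.2).

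**Figure D3:**
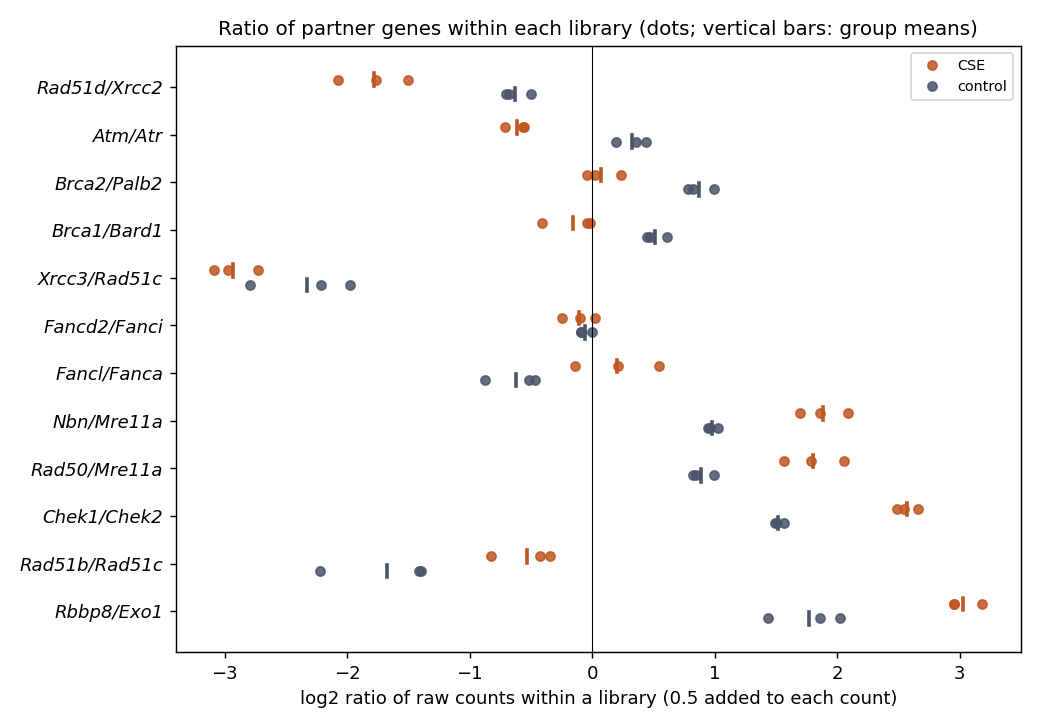
Log2 ratio of the raw counts of partner genes within each library, with 0.5 added to each count; dots are libraries, vertical bars group means, CSE above control in each pair. Only Fancd2/Fanci and Xrcc3/Rad51c have overlapping groups.

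The members were also divided at their median control level, as a description without a test. Of the 17 members under the median control level of 15.5 CPM, 15 fell and 10 fell at least 2-fold, with a median log2 fold change of −1.11. Of the 17 above it, 12 fell, 3 of them at least 2-fold, and all 3 rises were here (median −0.56). Over all tested genes 37.5% fell, 14.4% fell at least 2-fold and 36.3% rose. Spearman's rho between control CPM and log2 fold change was 0.48 across the 34 genes and 0.04 across the 13390 tested genes. This is across genes of the same 6 libraries, CPM is not scaled by gene length, and the control level enters both measures.

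Reads of overlapping genes cannot be told apart where the strand setting is not stated. In the RefSeq gene table of GRCr8, 13 members overlap another gene that had any count, and of these 12 fell and 1 did not pass (median log2 fold change −1.08). Of the other 21 members 15 fell, 3 rose and 3 did not pass (median −0.61), where 37.5% of all tested genes fell and 36.3% rose. Rad52 had 51 to 90 counts in CSE libraries and 113 to 143 in control libraries inside a neighbourhood shared with Wnk1, which had 6751 to 7399 and 5843 to 6733. Xrcc3 overlaps Klc1, which had 2647 to 3173 counts in CSE libraries and 2822 to 3612 in control libraries. In CSE libraries Rad54l had 32 to 36 counts beside 2097 to 2527 of Lrrc41, and Fancc 42 to 48 beside 1238 to 1387 of Aopep. Topbp1 had 644 to 797 beside 9708 to 10878 of Cdv3. The levels of Rad52, Xrcc3, Rad54l, Fancc and Topbp1 are uncertain because of these larger neighbours, and other overlapping members may be affected too. Of 11 overlapping genes that were tested, 5 rose, 3 fell and 3 did not pass. Polg fell (−0.55 ± 0.06, edgeR adjusted p = 8.0e-08) beside Fanci, with 958 to 1123 counts in CSE libraries and 1258 to 1574 in control libraries, against 388 to 439 and 620 to 745 for Fanci. Vrk2 fell beside Fancl (−0.26 ± 0.10) and Klc1 beside Xrcc3 (−0.23 ± 0.05). Lrrc41 rose (0.77 ± 0.05) beside the fall of Rad54l, Zfp276 (0.94 ± 0.09) beside that of Fanca, and Aopep (0.72 ± 0.06) beside that of Fancc, with edgeR adjusted p of 4.9e-10, 5.7e-08 and 1.4e-08. N4bp2l1 rose (1.48 ± 0.28) beside the fall of Brca2 and Cdv3 (0.44 ± 0.05) beside that of Topbp1, with edgeR adjusted p of 1.2e-04 and 4.5e-07.

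Other genes of the same processes were taken from lists written from general knowledge. Of 38 tested other genes of recombination and the Fanconi pathway 23 (60.5%) fell and 3 (7.89%) rose, with a median log2 fold change of −0.38. They include the helicase genes Recql (−1.08 ± 0.05) and Rtel1 (−1.65 ± 0.09) and Rpa3, a subunit gene of the single-strand binding protein RPA (−1.62 ± 0.11). The 22 other checkpoint genes had no common direction, with 7 lower (31.8%), 5 higher (22.7%) and a median of 0.01. Both shares were under those of all tested genes, of which 37.5% fell and 36.3% rose. H2ax, the histone variant gene whose product is phosphorylated at breaks, fell to 31.8 ± 2.40 CPM with CSE, against 87.9 ± 2.20 CPM in the control, and Mdc1, whose product binds it, to 11.9 ± 0.48 CPM, against 35.3 ± 1.99 CPM. Atmin, the gene of an ATM-interacting protein, rose to 35.2 ± 0.77 CPM, against 9.0 ± 1.46 CPM (SD, n = 3 each). The edgeR adjusted p of the genes named in this paragraph was at most 2.9e-10, the value of Rpa3.

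Repair routes other than recombination were lower on balance, with medians nearer 0 than the −0.87 of the members. The list of other recombination and Fanconi genes, written in the same way as these lists, had a median of −0.38. Of 17 end joining genes 11 (64.7%) fell and 2 (11.8%) rose (median −0.29). Prkdc, the DNA-PK catalytic subunit gene, was at −0.78 ± 0.08 and the polymerase genes Poll and Polm at −1.32 ± 0.11 and −4.18 ± 0.25. Polm had only 9, 9 and 8 counts in the CSE libraries, so the size of its fall is uncertain. Of 42 tested genes of excision, mismatch and bypass repair 23 (54.8%) fell and 9 (21.4%) rose (median −0.31), where 37.5% of all tested genes fell and 36.3% rose. Gtf2h1, a subunit gene of the repair and transcription factor TFIIH, was at 1.67 ± 0.05 and the damage recognition gene Rad23b at 0.64 ± 0.05. The edgeR adjusted p of these 5 genes was at most 2.2e-07, the value of Prkdc. Whether the members differ from these lists was not tested.

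Proliferation genes moved with the members. Of 44 tested replication genes 36 fell and 4 rose (median −0.61), and their summed level was 1222 to 1279 CPM in CSE libraries and 1951 to 2009 CPM in control libraries. Of 37 tested mitosis genes 36 fell and none rose with edgeR, DESeq2 or limma-voom, or at an unadjusted p under 0.05 (0 in each, median −0.98), and their summed level was 1310 to 1414 CPM in CSE libraries and 2618 to 2743 CPM in control libraries. Over all tested genes 37.5% fell and 36.3% rose. The part of the replication and mitosis changes in the fall of the members was not tested. Of the E2F genes, which encode regulators of many members, E2f1 (−1.12 ± 0.08), E2f2 (−1.72 ± 0.17), E2f7 (−1.77 ± 0.09) and E2f8 (−1.87 ± 0.15) fell, E2f4 fell by less (−0.41 ± 0.07) and E2f3 rose (0.81 ± 0.10). E2f5 (0.02 ± 0.10) and E2f6 (0.01 ± 0.07), chosen after their values were seen, did not pass (edgeR adjusted p = 0.861 and 0.879). The cell cycle inhibitor gene Cdkn1a, whose product blocks the kinases that release E2F, had 524 ± 25.9 CPM with CSE and 120.4 ± 1.63 CPM in the control. Whether Cdkn1a or the E2F genes had a part in the fall of the members was not tested. Among the regulators named here that passed, the edgeR adjusted p was at most 3.0e-05, the value of E2f4.

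**Figure D4:**
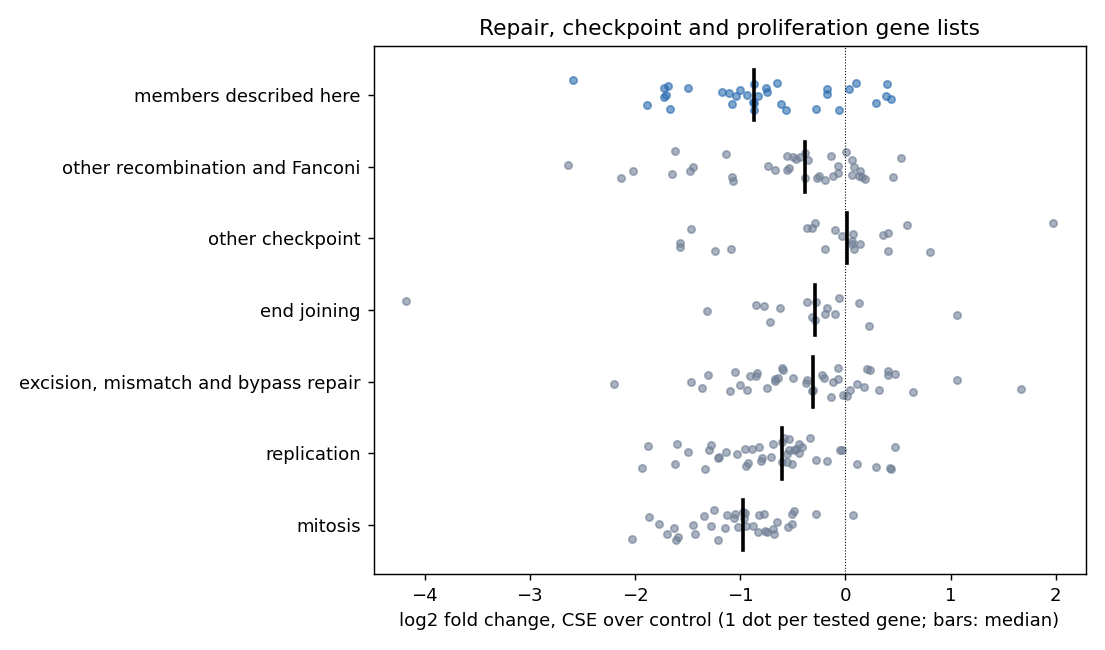
Log2 fold change of CSE over control for each tested gene (dot) of the member set and of 6 comparison lists, with the median of each list (bar). The medians are −0.87 for the members, −0.98 for mitosis and 0.01 for the other checkpoint genes.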

How the data were processed

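Raw read counts per gene symbol were deposited by the authors for 6 libraries in 1 table of 37209 rows, as whole numbers that had not been normalized. HISAT2 2.0.4, an aligner, and the rat build Rnor_6.0 are named, without saying what each served for, per the submitters' processing notes. No label or header names the counting tool, the strand setting or the annotation release. Columns were assigned by their names, which match the sample titles.

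Genes were kept with filterByExpr of edgeR 4.0.16 (R 4.3.3), leaving 13390, scaled by TMM and compared by the quasi-likelihood F test, 2-sided, with adjustment over all tested genes. The standard error is the log2 fold change divided by the square root of F. Levels are CPM of the scaled library size. Ratios of partner genes used exact permutation tests (scipy 1.17.1). The fit was tested on simulated data. Replicates of a group differed by 3.33 to 5.94 chi-square units per degree of freedom over tested genes with a count in either library, where sampling noise alone gives about 1, so no library was counted as a copy of another. Total counts of 15958621 or more per library put 3 counts at 0.177 CPM or less, which covers counting error only.

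The members, lists and tests were chosen with earlier results of these data known. Named genes were all members, up to 4 genes per list by smallest adjusted p, and a fixed set of regulators. Not every gene that this rule takes is reported here. Alternatives were RLE, total-count and upper-quartile scaling, 2 other filters, DESeq2 1.42.0, limma-voom (limma 3.58.1), a threshold of 0.01, a replicate block and leaving out each library. Gene names and overlaps came from the RefSeq table of GRCr8. No list was tested as a set.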

Additional observations from a re-analysis of the deposited data

How the results depend on the processing

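Of the 34 members, 28 kept their direction and side of the threshold under all 15 alternatives, and no called member changed direction under any of them. Calls of Bard1, Rad50 and Nbn ended under some settings, as given with their values, and Fancm gained a call under 2 scalings. Members that had not passed turned sign as follows. Rad51b was at −0.15 under total counts alone, −0.098 under upper-quartile scaling and −0.13 to 0.15 when 1 library was left out, and Rbbp8 at −0.091 under total counts alone and −0.039 under upper-quartile scaling. The difference in the log2 ratio of Fancd2 to Fanci lay between −0.11 and 0.021 when 1 library was left out. Total counts alone shifted the median of all tested genes by −0.19 and upper-quartile scaling by −0.14, and the median of the members became −1.06 and −1.0. The count of higher end joining genes, 2, was 1 under total counts alone, upper-quartile scaling and a threshold of 0.01, and 1 to 2 when 1 library was left out. With the replicate number as a block, 27 members were again lower and 3 higher, and no call of a member changed. Deviations of same-numbered libraries correlated at −0.03 to 0.02, so the numbers were not taken as pairs. Among the members, depth limits Xrcc3 and Fancf the most, with 32 and 80 counts over the CSE libraries. Polm, of the end joining list, had 26.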
